A study of Caenorhabditis elegans with 2 samples.

Results

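The cuticle collagen genes of Caenorhabditis elegans were examined for peaks of the nuclear hormone receptor NHR-11. They were taken by symbol as the protein-coding genes named col-, rol- or sqt- together with bli-1, bli-2, dpy-2, dpy-3, dpy-5, dpy-7, dpy-8, dpy-9, dpy-10, dpy-13 and dpy-17, which gave 174 of 19973 protein-coding genes (156 named col-, 9 dpy-, 4 rol-, 3 sqt- and 2 bli-). The data were peak lists from chromatin immunoprecipitation and sequencing (ChIP-seq) of whole L1 larvae, males and females pooled, of strain OP305. This strain, obtained from the CGC stock centre, carries unc-119(ed3) III and the transgene insertion wgIs305, which supplies NHR-11 fused to eGFP. The single group held 2 biological replicates, with no untagged strain or second stage in the peak lists analysed here. No condition could therefore be compared, and every value below is a description of 1 experiment. Fewer bound cells and weaker binding in each cell cannot be told apart in whole larvae.

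Each gene was scored by its highest peak signal, counting peaks with a summit no more than 1000 bp before and 200 bp after a transcript 5' end (WBcel235, the assembly of the ce11 lists). The signal is the authors' own value for each peak, on a scale not given in the sources used here. There were 3 lists of candidate peaks, of the pooled replicates (28727 peaks) and of replicate 1 and replicate 2 (30000 each), and a list of 1141 peaks called reproducible, all with a pooled signal of at least 49.9. A candidate list includes weak background regions by design. The lowest signal listed was 13.6 in the pool, 8.49 in replicate 1 and 7.14 in replicate 2, and weaker regions are not seen. Because a peak counts by its summit, a listed peak that reaches into a window from outside does not count either. A gene without a candidate is therefore not shown to be unbound.

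Cuticle collagens are the main structural proteins of the worm's exoskeleton. They are made by the epidermis in a burst before each molt, carry Gly-X-Y repeats that wind into a triple helix, and are cross-linked outside the cell. Mutations in some of them give the dumpy, roller, squat and blister phenotypes behind the symbols, and several nuclear hormone receptors, among them NHR-23 and NHR-25, are known to act in the molting cycle.

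The symbols largely matched collagens in the annotation. Of the 174 genes, 172 encoded 20 or more Gly-X-Y triplets in runs of at least 3, with a median of 51 triplets and a median protein length of 304 residues. The exceptions were rol-3, which encodes a receptor tyrosine kinase of 2481 residues with 0 such triplets, and col-17, whose annotated reading frame of 277 residues had 0 while another frame of the same coding sequence held 50. Both were kept, and neither had a pooled candidate in its window. The set also includes col-99, a transmembrane collagen, with a pooled signal of 13.6.

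Few of these promoters held a called peak. A called summit lay in the window of 3 of the 174 genes (1.72%), against 956 of all protein-coding genes (4.79%). A pooled candidate of any strength was present at 48 members (27.6%), against 41.2% of all genes, and candidates of each replicate at 18 members (10.3%), against 25.8% of all genes. Among genes with a pooled candidate, 6.25% of the collagen genes and 11.6% of all genes had a called summit. No p-value was computed, because genes of 1 experiment are not replicates. The called count was 1, col-38, when the 1141 highest candidates of replicate 2 alone replaced the called list, against 4.57% of all genes, and 3 with those of replicate 1 alone, against 4.68%.

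**Figure D1:**
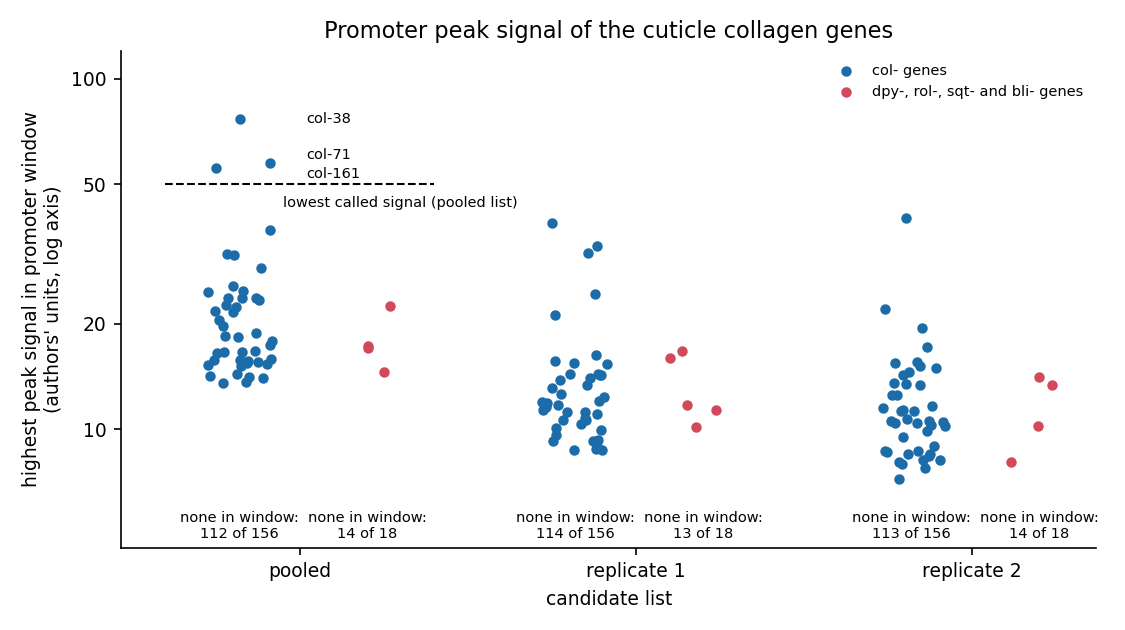
Highest peak signal in the promoter window (authors' units, log axis) of each collagen gene in the pooled, replicate 1 and replicate 2 candidate lists, with 1 point per gene and the genes without a candidate given as counts. Only col-38, col-71 and col-161 lie above the dashed line at 49.9, the lowest called signal, and no dpy-, rol-, sqt- or bli- gene passes 22.4 in the pool.

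The strongest collagen promoter was that of col-38 (WBGene00000615, chromosome II 8568035 to 8569088, minus strand). Its peak, at 8569320 to 8569689, had a signal of 76.7 in the pool, 38.8 in replicate 1 and 40.1 in replicate 2, and ranked 467 among the 8236 genes with a pooled candidate. The replicates were close to each other here. The summit lay 417 bp upstream of col-38 and 422 bp upstream of rpl-5, a gene for a large-subunit ribosomal protein that is transcribed in the opposite direction.

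The next was col-71 (WBGene00000647, II 3500077 to 3502570, minus strand), with 57.6 in the pool, 33.4 in replicate 1 and 22 in replicate 2. Its summit was 244 bp upstream of col-71 and 154 bp upstream of the divergent gene Y49F6B.2. At col-161 (WBGene00000734, V 13317029 to 13318011, minus strand) the pooled signal was 55.5, with 31.9 in replicate 1 and 15.2 in replicate 2. Among the called members, the replicates were farthest apart at this gene, which ranked 758 of the genes scored in replicate 1 and 2451 in replicate 2. The summit lay 398 bp upstream of col-161 but 43 bp upstream of srh-18, a divergent gene of a chemoreceptor family.

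Outside the called set the highest value belonged to col-2 (WBGene00000593, IV 10084439 to 10085451, minus strand), a collagen known for its expression at dauer formation. It had 36.9 in the pool, 24.3 in replicate 1 and 14.3 in replicate 2. Its summit was 449 bp upstream of col-2 and 237 bp upstream of ndc-80, which encodes a kinetochore protein, again on the other strand. The pooled -log10 q was 3.16 at col-38, 2.77 at col-71, 2.80 at col-161 and 1.21 at col-2, so that a q-value of 0.05 or less was reached by 3 members (6.25% of 48), against 17.4% of all genes with a candidate.

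The sequences under these summits are shown because they are the strongest regions beside collagen genes, with col-103 as the strongest summit that lies in the window of no other gene and dpy-9 as the strongest of the genes named for a phenotype. Each is 81 bases of the RefSeq WBcel235 genome centred on the summit, read 5′ to 3′ on the strand of the collagen gene. Capitals mark any of the 10 words of 6 bases that are described further on.

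col-38 (chrII:8569465-8569545, minus strand): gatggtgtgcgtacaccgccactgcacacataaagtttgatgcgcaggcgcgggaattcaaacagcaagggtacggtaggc
col-71 (chrII:3502774-3502854, minus strand): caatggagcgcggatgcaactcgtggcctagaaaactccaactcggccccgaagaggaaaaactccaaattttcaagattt
col-161 (chrV:13318369-13318449, minus strand): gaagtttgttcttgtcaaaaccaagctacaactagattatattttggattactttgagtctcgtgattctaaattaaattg
col-2 (chrIV:10085860-10085940, minus strand): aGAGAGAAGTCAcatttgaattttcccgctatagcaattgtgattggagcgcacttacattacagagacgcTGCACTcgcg
col-103 (chrIV:763831-763911, minus strand): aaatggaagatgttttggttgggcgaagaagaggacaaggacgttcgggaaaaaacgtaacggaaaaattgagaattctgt
dpy-9 (chrIV:259831-259911, minus strand): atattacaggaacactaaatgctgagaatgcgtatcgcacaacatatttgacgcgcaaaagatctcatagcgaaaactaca

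The GC content of these stretches was 55.6% at col-38, 48.1% at col-71, 29.6% at col-161, 45.7% at col-2, 40.7% at col-103 and 38.3% at dpy-9. Only the col-2 stretch held any of the words: GAGAGA and AAGTCA, overlapping near its start, and AGTGCA on the other strand near its end.

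The 4 highest collagen promoters all faced another gene. Of the 48 members with a pooled candidate, 7 had their strongest summit also in the window of a gene outside the set (14.6%), and all 7 of those genes were divergent: rpl-5, Y49F6B.2, srh-18 and ndc-80 as above, rfl-1 beside col-8, C12D8.21 beside col-148, and ugt-1 beside col-151. Their median pooled signal was 36.9, and the 5' end of the outside gene was the nearer at 4 of them. For the other 41 members the median was 17.4 and the highest value 31.6, at col-103, and none of the 41 was called. With col-183 and col-184, which share a summit with each other, 9 of 48 shared it with any other gene (18.8%), against 27.3% of all genes with a candidate. Among all genes with a candidate, a called summit was present at 22.4% of those sharing and 7.55% of those not sharing. When each summit was given only to the gene with the nearest 5' end, col-38 alone stayed in the called set, by a margin of 5 bp over rpl-5. Which of the facing genes, if either, the peak bears on was not tested.

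The 6 other members of the 10 highest had their summit in the promoter window of no gene from outside the set. In the pool col-103 had 31.6, with 15.6 in replicate 1 and 17.2 in replicate 2. For col-63 the values were 31.4 in the pool, 16.3 in replicate 1 and 19.5 in replicate 2, and the summit fell in the annotated 3' UTR of ceh-8, a homeobox gene. For col-110 they were 28.8 in the pool, 21.2 in replicate 1 and 10.7 in replicate 2, and the replicates were spread more widely than at col-103 or col-63. In the pool col-111 had 25.7, with a replicate 2 value of 15 and no replicate 1 candidate, and its summit lay in an intron of col-111 itself. For col-94 the pooled signal was 24.8, with 11.9 in replicate 1 and 13.4 in replicate 2, inside a coding exon of dhc-4, a dynein heavy chain gene. For col-167 it was 24.7, with 12.0 in replicate 1 and 11.7 in replicate 2. All 6 lay below 49.9, and none was above the col-2 value.

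Collagens of the furrows, the circumferential grooves of the cuticle, had 2 of 6 members with a pooled candidate (33.3%, against 41.2% of all genes), dpy-8 and dpy-9. In the pool dpy-9 had 22.4, with 13.4 in replicate 2 and no replicate 1 candidate. For dpy-8 the pooled signal was 17, with 16.8 in replicate 1, and the summit was 19 bp upstream of the 5' end. A replicate 2 candidate of 18.1 overlapped this peak, but its summit fell outside the window and it did not count. A second pooled candidate, overlapping the first, was higher, at 34.6, and its summit also lay just beyond the downstream edge of the window. At dpy-10, whose dominant alleles serve as co-editing markers, only replicate 1 had a candidate, with 16. No list held a candidate in the windows of dpy-2, dpy-3 and dpy-7. By summit, 0 of the 6 furrow collagens had a candidate in each replicate, against 25.8% of all genes. With so few genes, and with dpy-8 left out by the window edge, this does not set them apart.

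Of the 8 other body-shape collagens, sqt-3 and dpy-5 had a pooled candidate (25%, against 41.2% of all genes). A pooled signal of 17.3 was found for sqt-3, a collagen needed from the embryonic cuticle on, with 11.4 in replicate 1 and 14.1 in replicate 2. Its summit lay in its own annotated 5' UTR and entered the window because sqt-3 has a second annotated 5' end 365 bp farther on. For dpy-5 the pooled signal was 14.5, in its coding exon 191 bp into the gene, with no replicate summit in the window and an overlapping replicate 2 peak of 9.27. Replicate 1 alone had a candidate at dpy-13, of 11.8. Replicate 2 alone had one at sqt-2, of 10.3, and at rol-6, whose dominant allele is a common transformation marker, of 8.06. For dpy-17, rol-8 and sqt-1 there was none in any list. Of this group sqt-3 was the only gene with a candidate in both replicates (12.5%, against 25.8% of all genes).

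Among the remaining named genes, the strut collagen bli-2 had 10.2 in replicate 1 alone, and bli-1, its partner in the adult cuticle layer, had no candidate. Neither rol-1 nor rol-3 had one. In all, 9 of the 18 members not named col- lacked a candidate in every list, as did 83 of the 156 named col-. The share of all genes that lack one in every list was not computed, so these counts have no background beside them. The adult collagen col-19, often used as a marker of adult epidermal fate, had a pooled signal of 22.6.

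The replicates shared fewer of these weak candidates than they held. Each replicate had a candidate at 47 members, and 18 members were common to both, which left 29 in each list whose window held no summit of the other. The shared members were 38.3% of those in either list, against 61.5% of all genes in replicate 1 and 60.7% of all genes in replicate 2. The highest of the members with a summit in the window in 1 replicate only were dpy-8 (16.8) and dpy-10 (16) in replicate 1, col-8 in replicate 2 (15.5) and col-156 in replicate 1 (15.5). Of these, dpy-8 and col-8 had a peak of the other replicate that overlapped their pooled peak with its summit outside the window, of 18.1 at dpy-8 and 10.4 at col-8. Of the 48 members with a pooled candidate, 18 had one in both replicates, 12 in replicate 1 only, 12 in replicate 2 only and 6 in neither. When any overlap with a replicate's peak was accepted in place of a summit in the window, 21 of the 48 pooled peaks were met in both. A further 34 members had a candidate in 1 replicate but none in the pool, and 92 had none anywhere. For these counts, from the 48 members on, no share of all genes was computed, so they do not set the members apart. Over the 18 shared members the replicate signals had a Spearman's rho of 0.694 and a Pearson's r of 0.714 on the log10 scale, and rho was 0.513 over the 15 that were not called. Over 5159 genes of the whole genome with a candidate in each replicate rho was 0.580. These are descriptions across genes that share libraries, with no p-value.

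**Figure D2:**
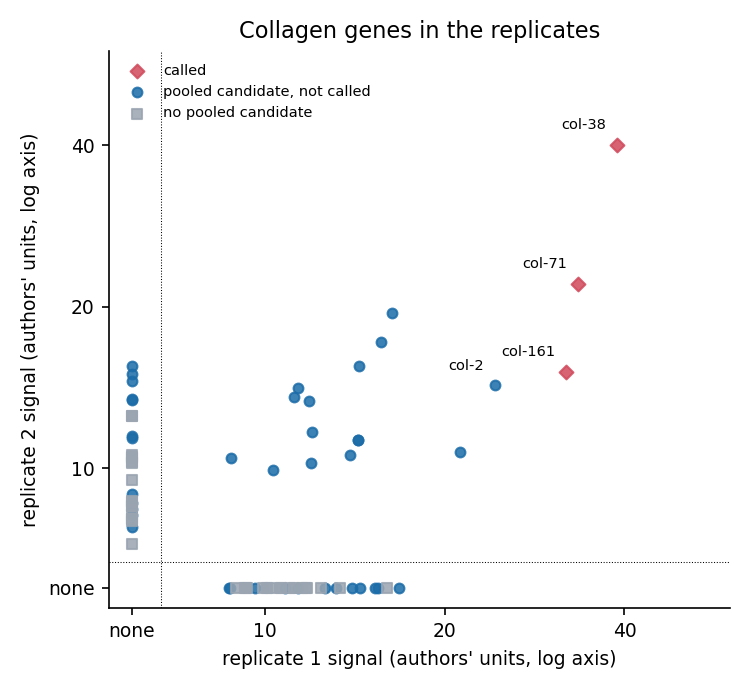
Highest promoter signal of each collagen gene in replicate 1 (x axis) and replicate 2 (y axis), both in the authors' units on log axes, with genes that lack a candidate in a replicate drawn at the position marked none; diamonds are called genes, circles other genes with a pooled candidate and squares genes without one. The plot shows 18 genes with both values, led by col-38 at 38.8 and 40.1, and 29 genes along each margin.

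By strength, too, the collagen candidates sat low. The median pooled signal of the 48 members was 18.1, with quartiles of 15.7 and 23.7, and that of all genes with a candidate was 21.1. The rank quartiles of the 8236 genes, from strongest to weakest, held 6, 13, 9 and 20 members. The median was 11.9 for the members and 13.3 for all genes in replicate 1, and 10.6 for the members and 11.4 for all genes in replicate 2. Each annotated 5' end adds a window, and 86.8% of members and 72.6% of all genes had only 1, and the mean length searched was 1263 bp for members and 1459 bp for all genes. Among genes with 1 such end, 26.5% of members and 35.4% of all genes had a pooled candidate, and 1.99% of members and 3.99% of all genes had a called summit.

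The summits of the members lay farther from the gene. The strongest pooled summit had a median position 509 bp upstream of the 5' end for the members and 302 bp upstream for all genes with a candidate, and within 250 bp of the 5' end there were 11 members (22.9%), against 43.7% of all genes. In the 200 bp just before the 5' end lay 4 members (8.33%), against 25.6% of all genes with a candidate. By annotation, 28 of the 48 summits were intergenic, 13 intronic, 3 in coding exons, 2 in 5' UTRs and 2 in 3' UTRs.

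**Figure D3:**
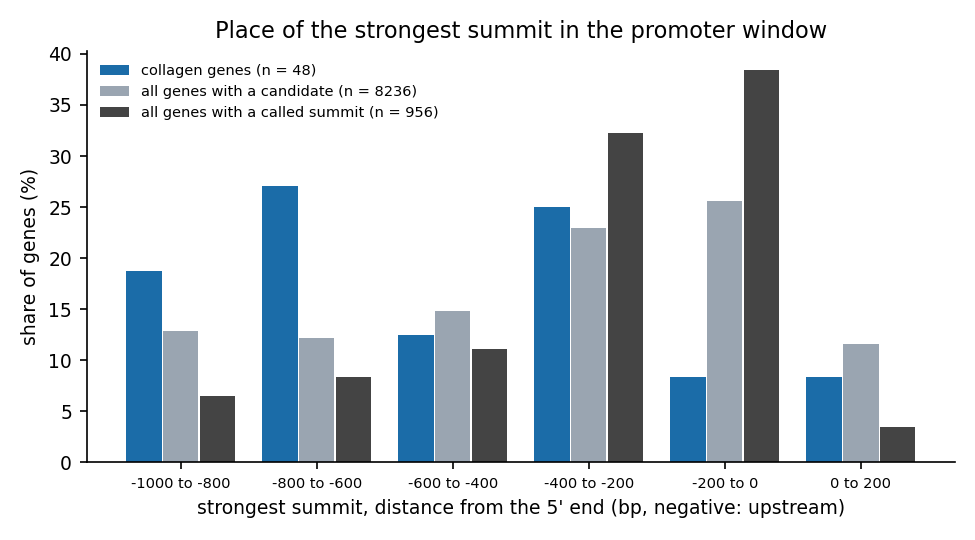
Share of genes (y axis, %) by the distance of the strongest summit from the 5' end (x axis, bins of 200 bp, negative values upstream), for 48 collagen genes, 8236 genes with a pooled candidate and 956 genes with a called summit. The bin just upstream of the 5' end holds 8.33% of the collagen genes, 25.6% of the genes with a candidate and 38.4% of the genes with a called summit.

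Outside the promoter windows, 30 of the 174 members had a pooled candidate within the gene body, a count for which no share of all genes was computed. The highest, 54.0 in rol-3, was a called peak in the member that is no collagen, followed by 34.6 in dpy-8 and 26.8 in col-72. A called summit lay within 5 kb of the 5' end of 16 members (9.20%), against 12.5% of all genes, and for sqt-2 the distance was 1323 bp. Many collagen genes are tandem copies, and 53 members had another member within 5 kb. Of these 12 (22.6%) had a pooled candidate, while 36 of the 121 without such a neighbour (29.8%) had a candidate. None of the 53 had a called summit. With 1.72% of all members and 4.79% of all genes called, this does not set them apart. For col-183 and col-184, which share a divergent promoter, the same peak of 23.7 counted for both.

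Members were spread over every chromosome. A pooled candidate was found at 15 of 43 on IV (34.9%, against 41.2% of all genes there), 9 of 33 on V (27.3%, against 34.9%) and 9 of 30 on X (30%, against 42.1%). It was found at 7 of 33 on II (21.2%, against 38.2% of all genes there), 4 of 13 on III (30.8%, against 50.9%) and 4 of 22 on I (18.2%, against 46.2%). The called members were 2 of 33 on II, against 4.87% of all genes there, and 1 of 33 on V, against 3.68%.

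Other genes of cuticle formation were counted in the same way, beside shares over all genes of 41.2% with a pooled candidate and 4.79% called. Of 21 cuticlins and other non-collagen cuticle parts, 3 had a pooled candidate (14.3%), led by cutl-2 at 35.4, and none was called. Of 16 genes for collagen processing, 8 had one (50%), and none was called. They included pdi-2, a protein disulfide isomerase that is a subunit of prolyl 4-hydroxylase, at 28.2, and bli-3, the dual oxidase that helps cross-link the cuticle, at 26.3. Among collagens outside the symbol rule, bli-6 was the only 1 of 4 with a pooled candidate, at 37.3, and of the basement membrane type IV collagens, let-2 had 19.9 and emb-9 had 18.8. Replicate 1 had no candidate at let-2, and replicate 2 had none at emb-9. Among 14 regulators of molting and epidermal fate, 10 had a pooled candidate (71.4%) and 2 were called (14.3%). The called ones were myrf-1, a membrane-bound transcription factor needed for molting, with 137 in the pool, 70.9 in replicate 1 and 67.5 in replicate 2, and myrf-2, its paralog, with 53.7. Of 4 regulators of the response to cuticle damage, wdr-23, a repressor of SKN-1, was called with 129. In the same list skn-1 had 47.4 and elt-3, also counted among the regulators of molting, had 28.7. Neither was called, and osr-1 had no candidate. 

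**Figure D4:**
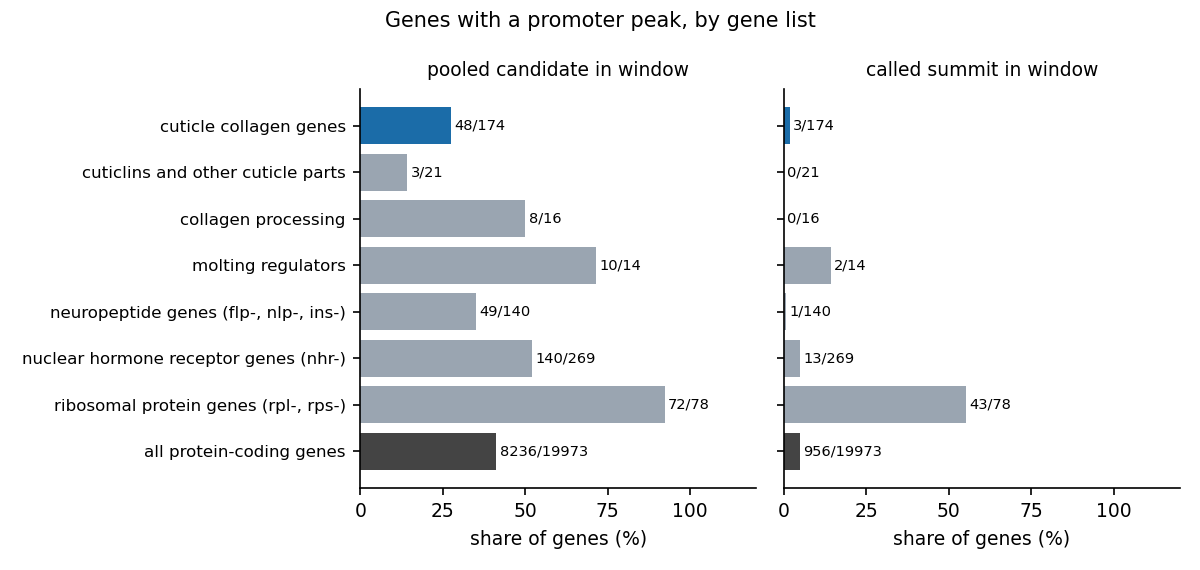
Share of genes (x axis, %) with a pooled candidate (left) or a called summit (right) in the promoter window, for the cuticle collagen genes, 6 other gene lists and all protein-coding genes, with counts beside the bars. The collagen genes have 48 of 174 and 3 of 174, the ribosomal protein genes 72 of 78 and 43 of 78.

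Of the 3 large families set beside them, the neuropeptide genes, which also encode many small secreted products, had the shares nearest to those of the collagen genes. Of 140 neuropeptide genes 49 had a pooled candidate (35%) and 1 was called (0.714%), ins-39, with 217. Nuclear hormone receptor genes had 140 of 269 (52.0%) with a candidate and 13 called (4.83%). Ribosomal protein genes had 72 of 78 (92.3%) and 43 called (55.1%). Over all protein-coding genes the shares were 41.2% with a candidate and 4.79% called, so the called share of the receptor genes was near that of all genes. The median pooled signals were 18.1 for the collagen genes, 19.4 for neuropeptides, 21.6 for receptors and 61.3 for ribosomal proteins.

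TATAAA, the core of the TATA box, was commoner in the collagen promoters. In the 250 bp upstream to 50 bp downstream of the farthest upstream 5' end it occurred on either strand in 66.1% of members and 37.9% of all genes. On the coding strand and 20 to 60 bp before the 5' end, a place chosen after the data were seen, it occurred in 65 members (37.4%) and 8.16% of all genes. TTTCAG, part of the splice acceptor, occurred in 35.6% of members and 51.7% of all genes, the E-box CACGTG in 1.72% of members and 5.82% of all genes, and the E-box CAGCTG in 1.72% of members and 5.55% of all genes. Of the 3 words that form sites of nuclear receptors, AGGTCA was in 14.4% of members and 8.27% of all genes, AAGTCA in 13.8% of members and 13.3% of all genes, and AGTGCA in 3.45% of members and 9.64% of all genes. The GATA word TGATAA was in 30.5% of members and 30.2% of all genes, GAGAGA in 28.7% of members and 21.8% of all genes, and GACGCA in 11.5% of members and 8.78% of all genes. Words were sought on both strands, no word contains another, and a match describes letters and not a bound site. The median GC content of this window was 38% for members and 34.3% for all genes.

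Of the 65 members with TATAAA at that place, 15 had a pooled candidate (23.1%), against 33 of the 109 without it (30.3%). Of the members named for a phenotype, 3 were among the 65, and their last 70 bases before the annotated 5' end are shown, on the gene's strand and with TATAAA in capitals, because TATAAA had the widest gap between members and all genes among the 10 words in the window of 250 bp upstream to 50 bp downstream. None of the 3 had a pooled candidate.

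bli-2 (chrII:5652435-5652504, minus strand): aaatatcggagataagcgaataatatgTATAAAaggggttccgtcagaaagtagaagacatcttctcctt
dpy-13 (chrIV:4235544-4235613, plus strand): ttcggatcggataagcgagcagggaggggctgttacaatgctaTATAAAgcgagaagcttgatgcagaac
rol-1 (chrII:12172503-12172572, plus strand): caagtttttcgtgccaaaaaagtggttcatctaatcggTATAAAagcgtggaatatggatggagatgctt

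**Figure D5:**
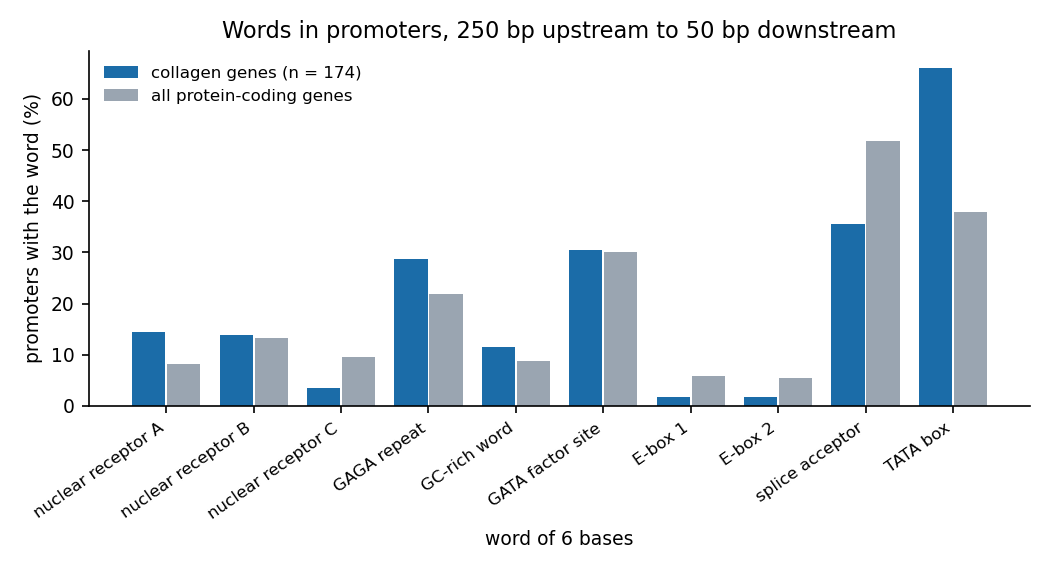
Share of promoters (y axis, %) that hold each of 10 words of 6 bases on either strand between 250 bp upstream and 50 bp downstream of the 5' end, for 174 collagen genes and all protein-coding genes. Words are labelled by the factor or element they are known for, with AGGTCA as nuclear receptor A, AAGTCA as B and AGTGCA as C, CACGTG as E-box 1 and GACGCA as the GC-rich word. The TATA box stands at 66.1% for the collagen genes and 37.9% for all genes.

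The summits themselves were examined in the same way. Within 50 bp of the 47 distinct pooled summits of the members, the median GC content was 36.6%, against 35.6% for the 7130 summits of all genes and 46.5% for the 708 called promoter summits. GAGAGA was found at 4 member summits (8.51%), against 10.9% of all and 26.3% of called ones. GACGCA was at 0 member summits, against 6.16% of all and 21.5% of called ones. TATAAA was at 10 member summits (21.3%), against 12.8% of all and 4.8% of called ones. AGGTCA was at 2 member summits (4.26%), against 2.34% of all and 2.68% of called ones. AAGTCA was at 1 (2.13%), against 3.8% of all and 3.11% of called ones, and AGTGCA at 3 (6.38%), against 3.72% of all and 6.07% of called ones.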

How the data were processed

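Peaks came from ChIP-seq of eGFP-tagged NHR-11 in whole L1 larvae, with DNA fragments of 150 to 350 bp, per the labels. The ce11 narrowPeak lists were used; the ce10 lists were not used here. Per the deposited notes, candidates were called for each replicate and for the pooled replicates against a control, and the reproducible list was derived from these by IDR (irreproducible discovery rate). No source used here names the aligner, peak caller or threshold. The signal and the -log10 q-value of each peak are as deposited; depth is unknown.

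Genes and 5' ends came from Ensembl release 115 (WBcel235), all transcripts of protein-coding genes, and sequence from RefSeq. Proteins were translated from the annotated coding sequence. Named genes were the called members, the 10 highest in the pool, every dpy-, rol-, sqt- and bli- member, and the highest seen in 1 replicate. The members col-17, col-19, col-72, col-99, col-148, col-151, col-183 and col-184 were named outside this rule, for the point made beside each. Members and lists were chosen with earlier results of these data known. Of the 5 collagen symbols outside the rule, 4 matched a gene. The summit search was tested on simulated data. Alternatives changed the window, the overlap rule, the assignment, the called set and the replicates. Python 3.11.15, numpy 2.4.6, pandas 2.3.3, scipy 1.17.1, Biopython 1.88 and matplotlib 3.10.9 were used.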

Additional observations from a re-analysis of the deposited data

How the results depend on the processing

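No paired analysis was possible because there is 1 group. With a window of 500 bp upstream and 0 bp downstream, 21 members had a pooled candidate (12.1%, against 26.2% of all genes) and 7 had one in both replicates (against 13.6%); with 2000 bp upstream and 500 bp downstream the counts were 73 (42.0%, against 56.4%) and 37 (against 42.3%). Called members were 1 with nearest-gene assignment (against 3.49% of all genes), where the median signal was 17.2 for members and 20.5 for all genes. They were 1 among the 570 strongest called peaks (against 2.50% of all genes). Among summits in no window of an outside gene, an alternative added after seeing the data, the called members were 0. That setting has no share over all genes. Of all genes with a candidate whose strongest summit was not shared, 7.55% were called. Leaving out replicate 1 gave 1 called member (against 4.57% of all genes), and leaving out replicate 2 gave 3 (against 4.68%). The median signal was 10.6 to 11.9, on the replicates' own scale. Either way 47 members had a candidate (27.0%), against 42.6% of all genes without replicate 1 and 42.0% without replicate 2. Only 18 members were in both of these sets. Any overlap, the farthest upstream 5' end, the 2282 strongest pooled candidates and, added later, only members with 20 or more Gly-X-Y triplets kept the counts within 1.5 times. The same triplet filter from a protein table was not run.

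In promoters from 1000 bp upstream to 200 bp downstream the shares were 37.9% of members against 26.7% of all genes for AGGTCA, 43.7% against 44.9% for AAGTCA, 26.4% against 34.1% for AGTGCA, 59.2% against 50.9% for GAGAGA and 26.4% against 25% for GACGCA. They were 78.7% of members against 71.9% of all genes for TGATAA, 12.1% against 18.3% for CACGTG, 14.9% against 20.9% for CAGCTG, 90.2% against 92.4% for TTTCAG and 90.2% against 80.0% for TATAAA. In the window of 250 bp upstream to 50 bp downstream, the shares of the 10 strongest members are set against those of all genes. They were 20% against 13.3% for AAGTCA, 20% against 8.78% for GACGCA and 20% against 51.7% for TTTCAG. They were 40% against 30.2% for TGATAA, 10% against 8.27% for AGGTCA, 30% against 21.8% for GAGAGA and 70% against 37.9% for TATAAA. They were 0% against 9.64% for AGTGCA, 0% against 5.82% for CACGTG and 0% against 5.55% for CAGCTG. Depth is unknown, so no limit of detection can be given.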
